A study of Mus musculus with 6 samples.

Results

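Wnt target and TCF genes were measured on 6 Illumina mouse BeadChip arrays of E14, an embryonic stem cell line of the mouse. The set is 8 genes, Ctnnb1, Tcf7, Tcf7l1, Tcf7l2, Axin2, Nkd1, Sp5 and Cdx1, and every probe annotated to one of these symbols was taken, whatever its level. The annotation gave 12 probes for 7 of the 8 genes, among 25697 probes in all, and Tcf7 was not analysed here because no probe carries its symbol. In the knockdown group, 3 arrays, the cells received Tip5 shRNA, with several constructs under different selection markers combined. In the control group, 3 arrays, they received a control non-specific shRNA, and the labels call them wild type. Tip5 is the product of Baz2a and forms, with an ISWI ATPase, a remodelling complex of nucleolar chromatin. Both groups were cultured on gelatin in serum and LIF, the shRNAs stood in pSuper vectors delivered by electroporation, and RNA was taken at passage 3 after antibiotic selection. Each sample is a selected population and not a clone.

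In canonical Wnt signalling a Wnt ligand bound to a Frizzled receptor and an Lrp co-receptor stops the destruction of beta-catenin, which enters the nucleus and joins DNA-bound TCF/LEF factors at target genes. Axin2, Nkd1 and Sp5 are targets that feed back on the pathway. In mouse embryonic stem cells Tcf7l1, also called Tcf3, acts mainly as a repressor, and beta-catenin supports self-renewal partly by relieving that repression.

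TCF/LEF factors bind the core CTTTGAT or CTTTGTT, read on either strand. Sp5 and Axin2 are shown because they are the textbook direct targets in the set. The sequences are the 250 bases before the annotated gene start, 5′ to 3′ on the gene's strand, from RefSeq on GRCm38.p6, at chr2:70474673-70474922 (plus strand) for Sp5 and chr11:108920099-108920348 (plus strand) for Axin2, with matches to either core in capitals.
Sp5: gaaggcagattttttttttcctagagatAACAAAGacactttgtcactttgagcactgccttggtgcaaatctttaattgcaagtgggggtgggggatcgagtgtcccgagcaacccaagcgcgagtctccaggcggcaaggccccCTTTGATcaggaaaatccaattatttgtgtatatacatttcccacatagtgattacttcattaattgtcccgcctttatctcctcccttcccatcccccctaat
Axin2: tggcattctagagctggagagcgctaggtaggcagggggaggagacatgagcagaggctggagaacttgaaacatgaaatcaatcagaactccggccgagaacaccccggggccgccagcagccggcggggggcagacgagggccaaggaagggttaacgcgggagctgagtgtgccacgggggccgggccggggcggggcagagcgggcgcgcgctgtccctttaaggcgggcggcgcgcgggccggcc
The Sp5 window held 1 match to CTTTGTT, on the opposite strand and starting 222 bases before the gene start, and 1 match to CTTTGAT, starting 104 bases before it. The 2 matches did not overlap. Of 32851 RefSeq windows of this length, 8.06% held either core and 0.174% held both. The Axin2 window held neither core, which says only that these letters are not in this stretch. Windows were found for 7 of the 8 genes, and beside Sp5 only 1 of the 2 Tcf7l2 windows held a match, to CTTTGTT starting 14 bases before that start. These matches describe the letters and are not measured binding.

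Levels below are normalized log2 values, differences are knockdown minus control on that scale, and a probe counts as above background on an array where its detection p-value was under 0.05. Of the 12 probes, 6 were tested, those of Ctnnb1 (2 probes), Tcf7l1, Tcf7l2, Axin2 and Sp5, and each was above background on all 6 arrays. Because these are populations of cells, a change in the share of cells that express a gene and a change in RNA per cell cannot be told apart. Baz2a, the target of the shRNAs, read 5.21, 4.74 and 5.13 in knockdown replicates 1, 2 and 3, against 6.42, 7.51 and 5.99 in control replicates 1, 2 and 3. That is a difference of -1.62 (SE 0.39, limma adjusted p = 0.203), with groups that did not overlap. The Baz2a probe was above background on 2 of 3 knockdown arrays, and with no background correction its difference was -0.57. The 9 embryonic stem cell markers checked, among them Pou5f1, Nanog and Sox2, were all measured above background, with a mean log2 level per array of 11.73 to 11.86 in the knockdown and 11.77 to 12.02 in controls. Among these 9 the groups did not overlap for Pou5f1 (0.25) and Tdgf1 (-0.52), against 17.0% of all 9015 genes tested, and neither passed. The replicate 3 arrays differed from the rest. On the first principal component (52.8% of the variance) replicate 3 stood at 52.7 in the knockdown and 38.3 in controls, with the other 4 arrays between -26.5 and -18.4. The second component (28.4%) set the groups apart, with controls between 17.3 and 26.9 and the knockdown between -33.8 and -9.9.

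Few markers of other cell types were measurable: 2 of 6 for mesoderm and primitive streak, 1 of 4 for neural cells, 2 of 5 for trophectoderm and 1 of 6 for fibroblasts. Of these, 3 did not overlap between the groups, against 17.0% of all 9015 genes tested, and none passed in either fit. They were the neural marker Nes (0.90, adjusted p = 0.296), the fibroblast marker Thy1 (-0.97, adjusted p = 0.255) and the streak marker Evx1 (0.62, adjusted p = 0.319). Evx1 was above background on 3 of 3 knockdown and 0 of 3 control arrays and so was tested through the knockdown arrays alone. Its p-value and its place among the 3 are therefore no support for a difference. The part of these markers in the differences below was not tested.

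In the 2-group fit of limma, 0 of the 6 member probes passed an adjusted p under 0.05 over the 13064 probes tested, where 0.0689% of all probes did. At an unadjusted p under 0.05, 3 of the 6 lay below (Sp5, Tcf7l1 and Tcf7l2), against 10.5% of all probes. Arrays of the same replicate number are called pairs here, though the labels do not say whether they were made together. With the replicate number as a block, 1 of the 6 passed, Sp5, where 1.71% of all probes did. That count was 0 without pair 1, 0 without pair 2 and 2 without pair 3, where 0.398%, 0.0765% and 5.12% of all probes passed. In 3 of the 6 the groups did not overlap, with the knockdown higher in each, against 16.1% of all probes in either direction and 8.34% with the knockdown higher. In 5 of the 6 the knockdown was higher in all 3 replicate pairs, against 23.6% of all probes. The members share arrays, and 2 of the 6 probes read the same gene, so these counts are not independent observations. The members were also chosen with earlier results of these data known. A count above the share of all probes is therefore no support for a change in the set.

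**Figure D1:**
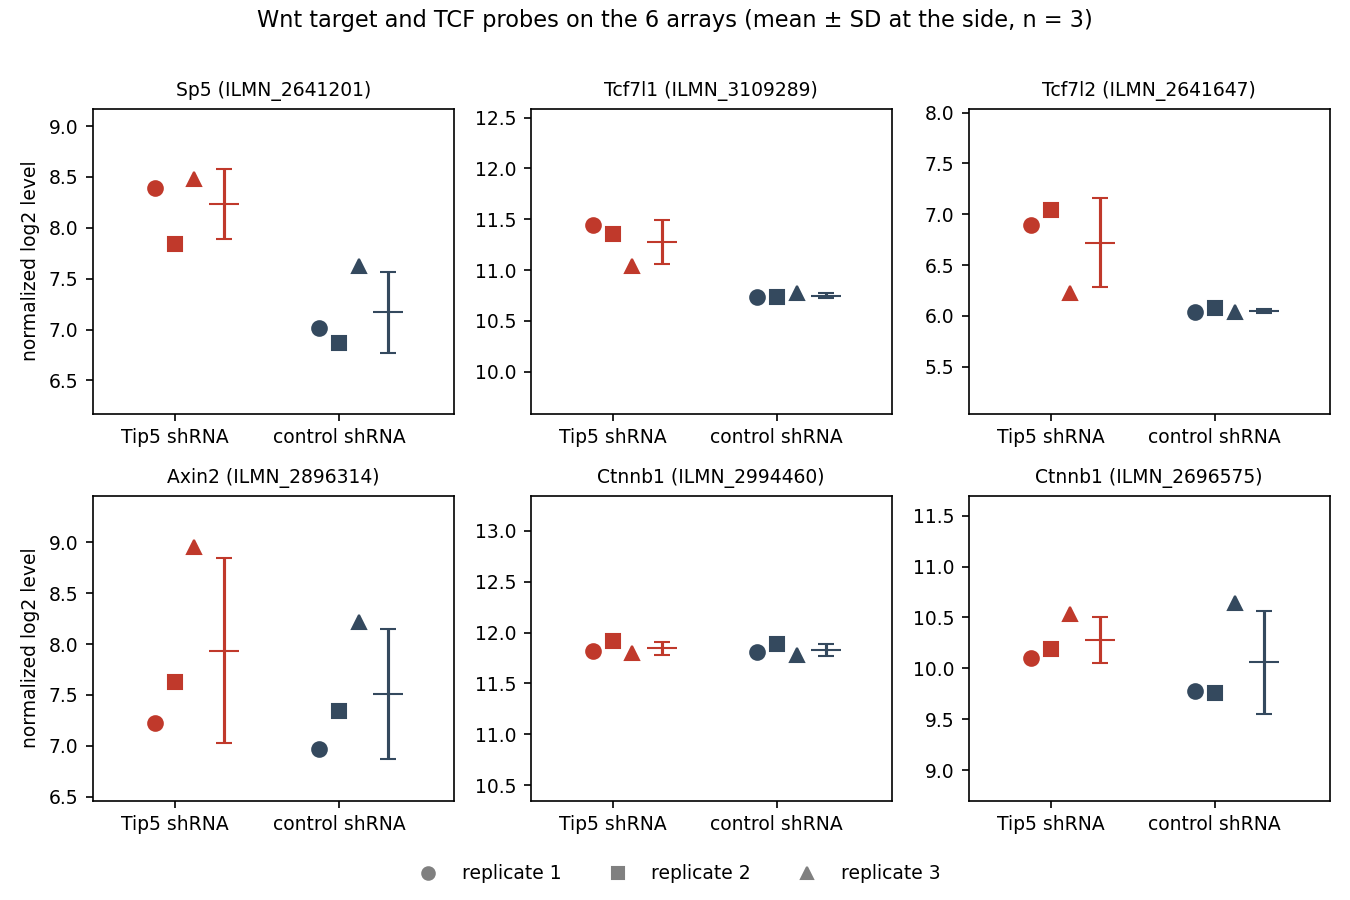
Normalized log2 level (vertical axis, each panel spanning 3 units) of the 6 member probes tested on each array, with knockdown arrays on the left and control arrays on the right, symbols for replicates 1 to 3 and mean ± SD (n = 3) at the side. Sp5, Tcf7l1 and Tcf7l2 do not overlap between the groups, while for Axin2 the replicate 3 array is the highest of each group.

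Ctnnb1 encodes beta-catenin, the coactivator that carries the signal to the TCF factors. Its brighter probe (ILMN_2994460) read 11.82, 11.92 and 11.80 in knockdown replicates 1, 2 and 3, against 11.81, 11.89 and 11.78 in control replicates 1, 2 and 3. The arrays of the 2 groups were interleaved, with a difference of 0.02 (SE 0.16, adjusted p = 0.989) and a 95% interval from -0.36 to 0.40. The other probe (ILMN_2696575) read 10.11, 10.19 and 10.53 in the knockdown, against 9.78, 9.76 and 10.64 in controls. Here control replicate 3 was the highest array and the other 2 controls the lowest. The difference was 0.22 (SE 0.28, adjusted p = 0.900), with an interval from -0.45 to 0.88. By the brighter probe, beta-catenin mRNA differed by at most 0.40 in either direction within the interval.

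Among the TCF factors, Tcf7l1 (ILMN_3109289), the repressor, read 11.44, 11.36 and 11.04 in knockdown replicates 1, 2 and 3, against 10.73, 10.74 and 10.77 in control replicates 1, 2 and 3. All 3 knockdown arrays lay above all 3 controls, and the controls lay close together. The mean was 11.28 ± 0.21 in the knockdown and 10.75 ± 0.02 in controls (SD, n = 3), a 1.44-fold difference or 0.53 on the log2 scale (SE 0.18, 95% interval 0.10 to 0.96). It did not pass the threshold (limma adjusted p = 0.354, and 0.122 with the replicate block). A two-sided exact permutation test over arrays gave p = 0.1, which is the smallest possible with 3 against 3. The other Tcf7l1 probe, annotated to another transcript, was above background on 0 of 6 arrays.

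Tcf7l2, also called Tcf4, is a TCF factor that can activate or repress its targets. Its tested probe (ILMN_2641647) read 6.90, 7.04 and 6.22 in knockdown replicates 1, 2 and 3, against 6.04, 6.07 and 6.04 in control replicates 1, 2 and 3. All 3 knockdown arrays again lay above the controls, replicate 3 by the smallest margin (0.18 within its pair, against 0.86 and 0.97 in pairs 1 and 2). The mean was 6.72 ± 0.44 in the knockdown and 6.05 ± 0.02 in controls (SD, n = 3), a 1.59-fold difference or 0.67 on the log2 scale (SE 0.24, 95% interval 0.10 to 1.24, limma adjusted p = 0.386). With the replicate block on all arrays it did not pass either (adjusted p = 0.124). With replicates 1 and 2 only, which drops the smallest pair difference, the difference was 0.91 and passed (adjusted p = 0.0389), where 4.32% of all probes passed. With array weights it was 0.87 (adjusted p = 0.0150), where 9.25% of all probes passed. With no background correction it was 0.29 (adjusted p = 0.456). Of the other Tcf7l2 probes, ILMN_3006739 was above background on knockdown replicate 1 alone, and ILMN_1245997 on 0 of 6 arrays, so the difference was read by a single probe.

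The feedback target Axin2 encodes a scaffold of the complex that destroys beta-catenin, and is widely used as a readout of the pathway. Its probe (ILMN_2896314) read 7.22, 7.63 and 8.96 in knockdown replicates 1, 2 and 3, against 6.97, 7.35 and 8.22 in control replicates 1, 2 and 3. The groups overlapped, and replicate 3 was the highest array of each. The difference was 0.43 (SE 0.50, 95% interval -0.75 to 1.60, adjusted p = 0.886), and it stood at 0.26, 0.28 and 0.74 in pairs 1, 2 and 3. With the replicate block the interval was 0.04 to 0.81 and the adjusted p 0.188. Without knockdown replicate 3 the 2-group difference was -0.08, and without control replicate 3 it was 0.78.

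Endoderm markers were also high on the replicate 3 arrays. Of the 8 fixed for endoderm, 4 were tested, Gata6, Sparc, Col4a1 and Dab2, and their mean log2 level was 7.94, 7.63 and 11.39 in knockdown replicates 1, 2 and 3, against 8.57, 8.11 and 9.20 in control replicates 1, 2 and 3. Of the transcription factors in this list Gata6 was tested, while Gata4, Sox17, Foxa2 and Sox7 did not pass the filter. A gene above background on the replicate 3 arrays alone would fail that filter of 3 arrays. All 4 tested markers had both replicate 3 arrays above the other 4, as Axin2 did, against 21.7% of all 9015 genes tested. So did 4 of the 9 embryonic stem cell markers and 1 of the 2 trophectoderm markers tested, and 0 of the mesoderm, neural and fibroblast markers. The pattern is therefore not particular to endoderm markers, and their part in the Axin2 levels was not tested.

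**Figure D2:**
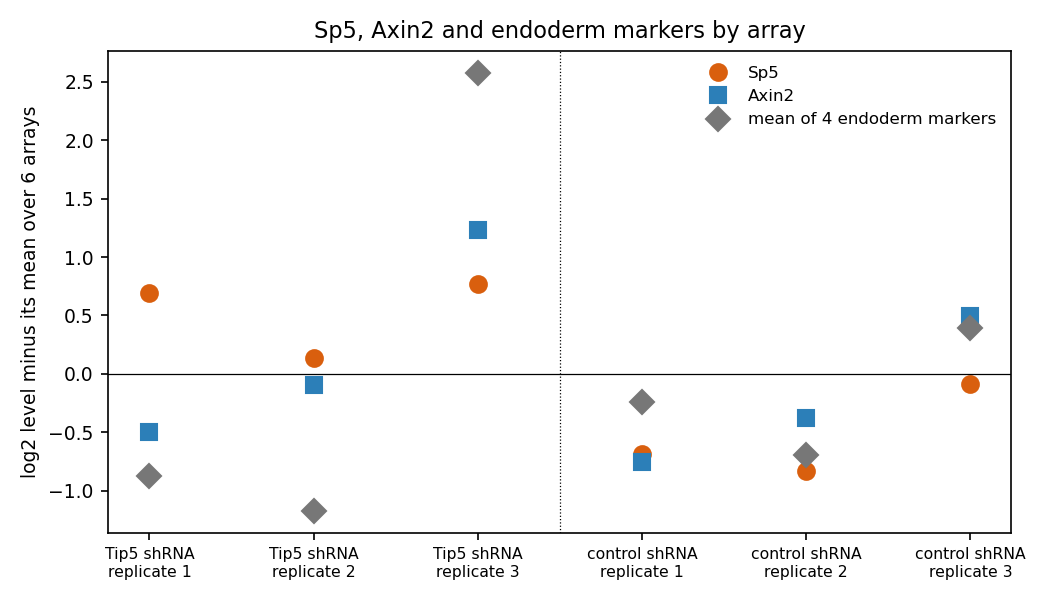
Log2 level minus its mean over the 6 arrays (vertical axis) for Sp5, Axin2 and the mean of 4 endoderm markers, by array, with the knockdown on the left. Axin2 stands at 1.23 in knockdown replicate 3 and 0.50 in control replicate 3 and below 0 elsewhere, whereas Sp5 is above 0 on all 3 knockdown arrays and below 0 on all 3 control arrays.

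Nkd1, an inhibitor that binds Dishevelled and is induced by Wnt, was above background on 0 of 6 arrays with its single probe (ILMN_2916283), so its level was not measurable here in either group. Cdx1, a caudal-type homeobox gene induced by Wnt in the early embryo, had 2 probes, neither tested. One of them (ILMN_2863641) read 5.07, 4.57 and 5.77 in the knockdown, against 4.47, 4.79 and 5.54 in controls, and was above background only on replicate 3 of each group. The other (ILMN_2725801) was above background on 0 of 6 arrays. The 6 untested member probes lay between 4.26 and 5.77 on all arrays, and no difference is given for them.

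Sp5, a zinc-finger transcription factor of the Sp family and a direct Wnt target, had the largest difference among the 6 member probes tested. Its probe (ILMN_2641201) read 8.39, 7.84 and 8.48 in knockdown replicates 1, 2 and 3, against 7.01, 6.87 and 7.62 in control replicates 1, 2 and 3. All 3 knockdown arrays lay above all 3 controls, the closest being knockdown replicate 2 and control replicate 3. The deposited signals, before background correction, were 331, 253 and 862 in the knockdown, against 202, 175 and 413 in controls, where replicate 3 was the brighter array of each group overall (median probe signal 218.8 in knockdown replicate 3 and 184.5 in control replicate 3, against 125.1 to 133.5 on the other 4).

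The mean of Sp5 was 8.24 ± 0.34 in the knockdown and 7.17 ± 0.40 in controls (SD, n = 3), a 2.10-fold difference or 1.07 on the log2 scale (SE 0.27, 95% interval 0.43 to 1.71). In the 2-group fit the adjusted p was 0.227, and a two-sided exact permutation test gave p = 0.1, again the smallest possible. Within pairs 1, 2 and 3 the difference was 1.38, 0.97 and 0.86. With the replicate block the SE was 0.16, the interval 0.68 to 1.45 and the adjusted p 0.0415. That call was not kept without replicate pair 1 (0.91, adjusted p = 0.128) or pair 2 (1.12, adjusted p = 0.150), and it was kept without pair 3 (1.18, adjusted p = 0.0369). Sp5 is therefore a gene that passed in 1 of the 2 fits, with a difference of 0.67 or more under every alternative run.

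**Figure D3:**
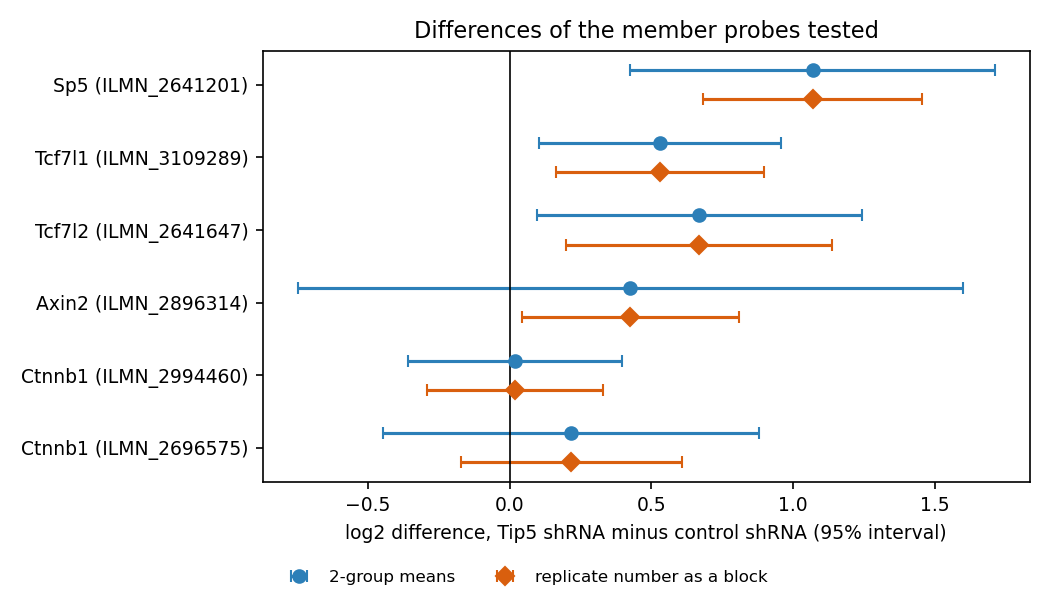
Log2 difference, knockdown minus control (horizontal axis), with its 95% interval for the 6 member probes tested, from the 2-group fit (circles) and with the replicate number as a block (diamonds). The intervals of Sp5, Tcf7l1 and Tcf7l2 lie above 0 in both fits, that of Axin2 only with the block, and those of Ctnnb1 in neither. These intervals are not adjusted for the 13064 probes.

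The genes whose profile over the 6 arrays was most like that of Sp5 were Pes1, Dpysl4, Lrrc15, Cxcl12 and Sh3pxd2b. Likeness is the root mean square difference between the deviations of each array from the probe mean, where 0 is an identical profile and the median over 8858 genes was 0.67. It was 0.08 for Pes1, a ribosome biogenesis factor, 0.12 for Dpysl4, a collapsin response mediator protein, 0.13 for Lrrc15, a leucine-rich repeat membrane protein, 0.14 for Cxcl12, a chemokine, and 0.16 for Sh3pxd2b, a podosome scaffold. Pes1, the nearest, read 10.19, 9.77 and 10.34 in the knockdown, against 8.95, 8.92 and 9.55 in controls. Among the members Tcf7l1 stood at 0.44, Tcf7l2 at 0.52, Axin2 at 0.61 and Ctnnb1 at 0.63, so none of them was among the 5 nearest.

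The rest of the pathway was read from 125 genes listed by role, of which 114 had a probe and 68 were tested, each by its probe of highest mean level. In the 2-group fit 0 of the 68 passed, against 0.0776% of the 9015 genes tested, with 12 at an unadjusted p under 0.05 in limma (8 higher and 4 lower in the knockdown), against 11.2% of the 9015. With the block 3 of the 68 passed, Porcn and Wls higher and Dkk3 lower, against 1.95% of the 9015. It was 0 of the 68 without pair 1, 0 without pair 2 and 7 without pair 3, where 0.398%, 0.0765% and 5.12% of all probes passed. The median difference was -0.02, with 33 positive and 35 negative, against 0.02 over the 9015 genes tested. The groups did not overlap in 13 of the 68, against 17.0% of the 9015 genes. Wnt4 and Frat1, 2 of the 68, were above background on 0 control arrays and so entered the tests only through the knockdown arrays, where they were higher. Both are among the 8 higher genes and the 13 without overlap, so their part in these counts is no support.

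Among ligands and secretion factors, 8 of 25 were tested and 2 rose with the block. Porcn, the acyltransferase that attaches the lipid Wnt proteins need, read 10.29, 10.09 and 10.56 in the knockdown, against 9.16, 9.32 and 9.42 in controls. The groups were apart by more than their own range, with a difference of 1.02 (SE 0.20, adjusted p = 0.132, and 0.0401 with the block), and a dimmer Porcn probe gave 0.64. Wls, the carrier that brings Wnt proteins to the cell surface, read 6.16, 6.18 and 7.12 in the knockdown, against 5.13, 4.88 and 6.21 in controls. Replicate 3 was the highest array of each group and the groups overlapped, so Wls passed only within pairs (1.08, adjusted p = 0.410, and 0.0342 with the block), at 1.03, 1.30 and 0.92 in pairs 1, 2 and 3. Wls was not above background on control replicate 2, so the pair 2 value, and with it the mean, is set against an array at background.

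Wnt4, a ligand, was above background on 3 of 3 knockdown arrays and 0 of 3 control arrays. It read 6.22, 6.15 and 5.59 in the knockdown, against 4.87, 4.91 and 5.00 in controls (limma adjusted p = 0.155, and 0.0557 with the block). With controls set at the lowest detected signal, the knockdown mean was 1.89-fold higher, and the measured difference in pair 3 was 0.59 on the log2 scale. Since Wnt4 passed the filter through the knockdown arrays alone, these p-values are no support for the difference. Its measured means were 5.99 ± 0.35 in the knockdown and 4.92 ± 0.07 in controls (SD, n = 3), near the floor, and its second probe was above background on 0 of 6 arrays. Wnt3a, the lowest of the 8 and named after its values were seen, read 4.52, 4.87 and 5.50 in the knockdown, against 5.75, 6.10 and 5.65 in controls (difference -0.87, adjusted p = 0.326). It was above background on 1 of 3 knockdown arrays and 3 of 3 control arrays.

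Of the receptors and co-receptors 9 of 18 were tested and 0 passed in either fit (0.0776% and 1.95% of all genes did), with a median difference of 0.20. The ends of the range, named after their values were seen here and for the roles below, were Lrp5 (-0.23) and Fzd2 (0.47). Fzd7, a Frizzled receptor prominent in embryonic stem cells, read 10.78, 10.82 and 9.47 in the knockdown, against 10.10, 10.37 and 9.49 in controls, with replicate 3 lowest in each group. Of the 9, 6 were positive and 3 negative, where 52.8% of all genes were positive.

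Of the extracellular and membrane inhibitors 7 of 16 were tested. Dkk3, a divergent member of the Dickkopf family, read 7.22, 7.72 and 6.07 in the knockdown, against 8.17, 8.63 and 7.24 in controls. It was lower within each pair, by -0.95, -0.91 and -1.17, while the groups overlapped (difference -1.01, SE 0.50, adjusted p = 0.556, and 0.0342 with the block). A second Dkk3 probe gave -0.92 (blocked adjusted p = 0.127). Sfrp1, a secreted Frizzled-related protein that binds Wnt, read 9.27, 8.89 and 8.45 in the knockdown, against 7.61, 7.21 and 8.40 in controls. Its groups did not overlap, but pair 3 differed by 0.04 where pairs 1 and 2 differed by 1.66 and 1.68 (1.13, adjusted p = 0.307, and 0.137 with the block). Notum, a secreted Wnt deacylase and itself a Wnt target, differed by 0.22 (adjusted p = 0.797).

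Of the cytoplasmic components 17 of 25 were tested and 0 passed in either fit (0.0776% and 1.95% of all genes did). The median was -0.09, with 5 positive against 12 negative, where 52.8% of all genes were positive. The range ran from Csnk1d, a casein kinase (-0.48), to Sfn, a 14-3-3 protein (0.92). The kinase Gsk3b differed by -0.24 (adjusted p = 0.891) and the scaffold Apc by -0.08 (adjusted p = 0.977). Nkd2, the paralog of Nkd1, was measured on all arrays and differed by -0.13 (adjusted p = 0.917).

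Of the nuclear cofactors 16 of 22 were tested and 0 passed in either fit (0.0776% and 1.95% of all genes did), with a median of 0.03. The range ran from Nlk, a kinase that phosphorylates TCF factors (-0.50), to Bcl9l, a beta-catenin coactivator (0.71, adjusted p = 0.244). The co-repressor Tle4 read 12.11, 12.03 and 12.07 in the knockdown, against 11.51, 11.58 and 11.65 in controls, without overlap (0.49, adjusted p = 0.331). Lef1, the TCF/LEF factor that is itself a Wnt target, was above background on 0 of 6 arrays with either of its 2 probes.

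Of the other Wnt targets 7 of 20 were tested and 0 passed in either fit (0.0776% and 1.95% of all genes did). Their differences lay between Ascl2 (-0.24) and Sp8, a relative of Sp5 (0.54). Ccnd1, cyclin D1, differed by 0.45 (SE 0.24, adjusted p = 0.613) and Myc by -0.18 (adjusted p = 0.918). T (Brachyury) was not analysed here. Of 6 genes known to be repressed by Tcf7l1 in mouse embryonic stem cells 5 were tested, and 0 passed in either fit, against the same shares. They ran from Nr5a2, an orphan nuclear receptor (-0.51, adjusted p = 0.406), to Tbx3, a T-box factor (0.66, adjusted p = 0.592), with Esrrb at 0.01, Klf2 at -0.01 and Nanog at -0.19. Of these 5 genes 2 were positive and 3 negative, where 52.8% of all genes were positive. Any link to the Tcf7l1 level was not tested.

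**Figure D4:**
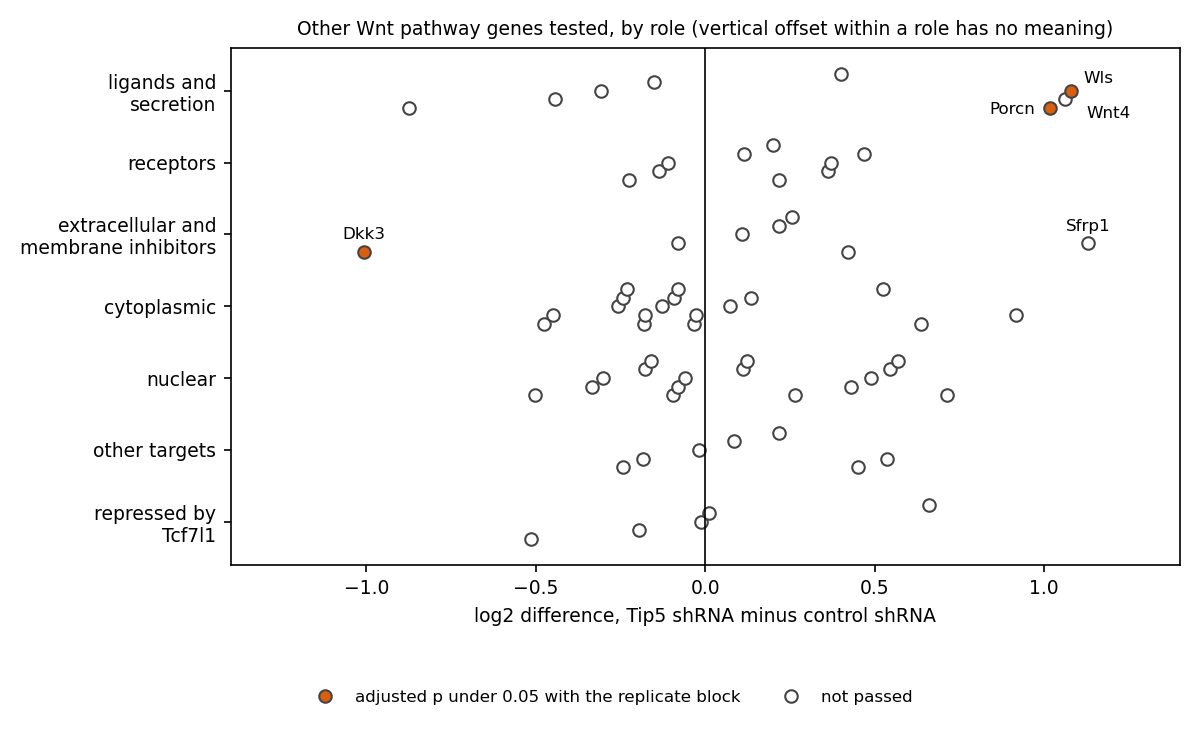
Log2 difference, knockdown minus control (horizontal axis), of the other Wnt pathway genes tested, a point per gene and role (Notum stands in 2 roles), with filled points for those at an adjusted p under 0.05 with the replicate block. Porcn and Wls stand at 1.02 and 1.08, Dkk3 at -1.01, and most other genes lie within 0.5 of 0.

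**Figure D5:**
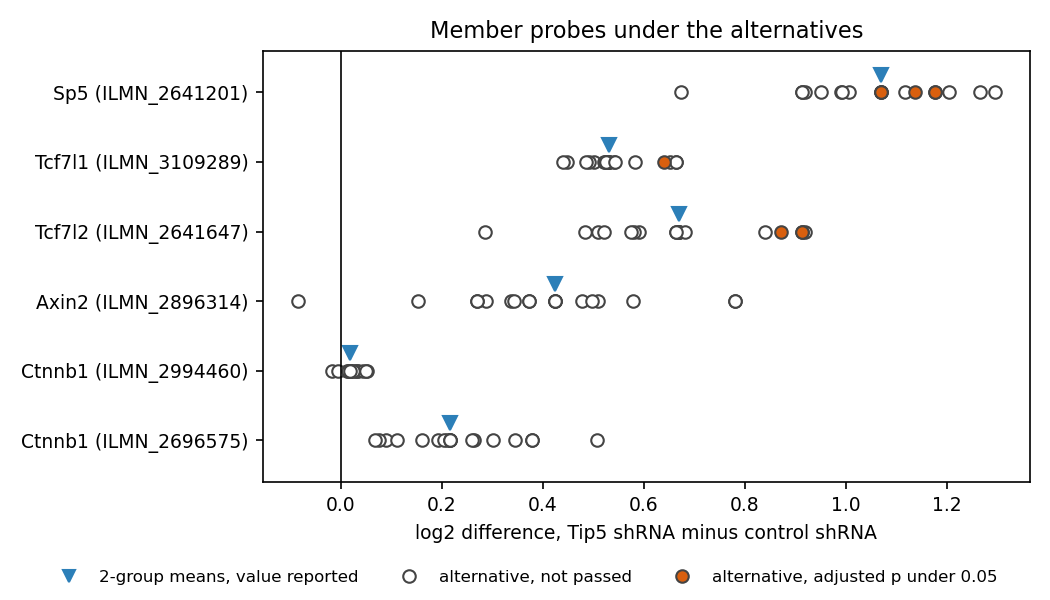
Log2 difference, knockdown minus control (horizontal axis), of the 6 member probes tested, with the reported value as a triangle above each line and the 18 alternatives as circles, filled where the adjusted p was under 0.05. Sp5, Tcf7l1 and Tcf7l2 are above 0 under each alternative, between 0.67 and 1.29, 0.44 and 0.66, and 0.29 and 0.92, while Axin2 and the brighter Ctnnb1 probe cross 0.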

How the data were processed

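The authors deposited, per the file headers, the signal of each probe, a linear intensity with no background subtracted, and a detection p-value per array. A deposited table of processed intensity, linear and with a floor of 1, was an alternative. The submitters' processing notes name GenomeStudio 2011.1 and no role for it. In limma 3.58.1 (R 4.3.3), the neqc steps were run: normexp background correction informed by detection p-values (offset 16), then quantile normalization, then log2. Tests covered the probes detected (p under 0.05) on 3 or more of 6 arrays (13064 of 25697, 50.8%) with lmFit and eBayes (2-group means, Benjamini-Hochberg). In the probe annotation 23978 probes had 1 symbol, 0 had several and 1719 had none. Symbols were updated through the Entrez identifier (assembly GRCm38.p6, 23962 probes matched), and coordinates of promoter windows are from that assembly.

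Replicate numbers come from the sample titles, and the labels do not say whether transfections of the same number were done together. The block is therefore printed only as an alternative beside the 2-group fit. Deviations from the group means correlated over 13064 probes at 0.44, 0.52 and 0.71 in pairs 1, 2 and 3. The spread within pairs 1 and 2 hardly tells those numbers apart, since knockdown replicate 2 and control replicate 1 correlated at 0.46. The labels give 3 transfections per group. The array number limits the precision. Named pathway genes are those that passed in either fit, or did not overlap and differed by at least 1, plus Lef1 and T. Others were named after their values were seen. A probe above background on 0 arrays of a group is given as a bound on the difference of the group means, against the lowest detected signal on those arrays. The members and lists were chosen with earlier results of these data known. The fit was tested on simulated data with noise drawn separately for each probe. Those data held no replicate 3 difference shared across probes, so they cannot tell how the fits handle it.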

Additional observations from a re-analysis of the deposited data

How the results depend on the processing

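The alternatives were the replicate block, no background correction, offset 50, cyclic loess, the authors' processed values, no filter, a strict filter, array weights, replicates 1 and 2 only, and leaving out each array. The block without each pair was added after seeing the data. Against 0 member probes and 0 pathway genes in the 2-group fit, 1 and 3 passed with the replicate block, 3 and 13 with array weights, and 1 and 6 with replicates 1 and 2 only. Over all probes tested, calls rose as well, to 1.71%, 9.25% and 4.32% under these settings, against 0.0689%. Leaving out 1 array gave 0 member probes and 0 to 1 pathway genes (1 without knockdown replicate 3), and leaving out 1 pair from the block gave 0 to 2 and 0 to 7, highest without replicate 3 (5.12% of all probes). The other alternatives gave 0 and 0. At an unadjusted limma p under 0.05, the 2-group fit and these other alternatives had 3 member probes and 10 to 12 of 68 pathway genes. For pathway genes it was 8 of 54 with the strict filter and 16 of 114 with no filter. With 1 array left out, the counts were 1 to 3 member probes and 5 to 18 pathway genes. They were 4 and 22 with the replicate block, 3 and 24 with array weights, and 4 and 22 with replicates 1 and 2 only. The block gave 1 and 15 without pair 1, 1 and 9 without pair 2, and 3 and 24 without pair 3. The share of all probes below that p is given for the 2-group fit alone (10.5%), so these counts cannot be judged under each setting. With array weights Sp5 (1.14, adjusted p = 0.0164), Tcf7l1 (0.64, adjusted p = 0.0240) and Tcf7l2 passed, and so did Baz2a (-1.81, adjusted p = 0.0182). Baz2a lay between -2.07 and -0.57 over 17 alternatives, the least with no background correction, and between -1.99 and -1.04 when arrays or pairs were left out. Leaving out an array put Axin2 between -0.085 and 0.78 and the brighter Ctnnb1 probe between -0.017 and 0.051, with -0.0052 without control replicate 3. With a pair left out of the block, Axin2 stood at 0.51, 0.50 and 0.27 without pairs 1, 2 and 3, and the brighter Ctnnb1 probe at 0.025, 0.014 and 0.019. The cause of these moves was not tested. The other 4 member probes kept their direction. Of the 12 member probes 4, that of Nkd1 among them, were above background on 0 arrays, and 2 further member probes, of Cdx1 and Tcf7l2, on 2 and 1 of 6, too few to test.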
